A study of Mus musculus with 6 samples.

Results

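The genes of the NF-kB system described here are a list of 34 named members: the transcription factor subunits and the kinases that activate them, the adaptors and ubiquitin ligases that carry the signal, the IkB family and other inhibitors, and genes known as its targets. The members were taken by name, but the list was drawn up with earlier results of these data known. The counts called below are therefore not independent of these data. Of the 34 members, 31 had a probe set that the platform annotation pairs with a single gene symbol, out of 19938 such genes on the arrays, and all 31 were tested because no filter on dim genes was applied. Nfkb1, Chuk and Traf3 had no probe set paired with their symbol alone in the annotation used and were not analysed here.

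NF-kB is a family of paired DNA-binding proteins that rest in the cytoplasm, held by inhibitors of the IkB family. Signals from TNF, interleukin-1 family and Toll-like receptors activate the IkB kinase complex, which marks the inhibitors for destruction and frees the subunits to enter the nucleus. A second, slower route runs through the kinase gene Map3k14, Nfkb2 and Relb, and is held down by Traf2, Traf3 and Birc2. Several genes that the freed subunits switch on encode the inhibitors themselves, so the system limits its own activity. In macrophages it is best known for driving inflammatory cytokines, adhesion molecules and survival genes. ST2, the IL-33 receptor, belongs to the interleukin-1 receptor family and signals through Myd88 and Irak proteins to the same kinases.

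RNA came from cells carrying F4/80, a surface protein of mouse macrophages, that were isolated from implanted tumours. The host mice were wild type (3 arrays) or St2-/-, which lack a working gene for ST2 (3 arrays). The labels name neither the tumour, the age of the mice nor any treatment, and they do not say whether the tumour cells carried ST2. Nor do they say whether the arrays of a group stand for separate animals, and a p-value here therefore reflects array-to-array spread alone, which may be technical.

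Values are deposited log2 RMA expression values, differences are St2-/- minus wild type, and a gene is called higher or lower at a limma adjusted p under 0.05 over all 19938 genes. The array medians over these genes lay between 5.88 and 5.93 in wild type and between 5.81 and 5.82 in St2-/-. Of 7 macrophage markers 2 were called higher, Adgre1 (the gene of F4/80, 0.31) and Fcgr1 (0.36), and 2 lower, Mertk (-0.72) and Lyz2 (-0.71). Csf1r, Cd68 and Itgam differed by 0.05, -0.04 and 0.06 and were not called. The targeted gene itself was not analysed here, for want of a probe set paired with its symbol alone, so its level gives no check of the genotypes. In bulk RNA a lower value can mean fewer cells of a type or less RNA per cell, and these cannot be told apart.

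The DNA that NF-kB subunits bind is the kappaB site, and 4 stretches of promoter are shown because each holds such a match upstream of a member that fell, rose or was not called. They are RefSeq sequences of the mouse build GRCm38.p6, written 5′ to 3′ on the gene's strand, and capitals mark the match to the kappaB consensus decamer.
Nfkbia: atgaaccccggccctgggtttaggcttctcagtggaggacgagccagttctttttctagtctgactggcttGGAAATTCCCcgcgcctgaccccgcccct
Tnfaip3: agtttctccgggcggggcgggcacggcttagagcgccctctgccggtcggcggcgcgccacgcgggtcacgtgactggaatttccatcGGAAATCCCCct
Tnip1: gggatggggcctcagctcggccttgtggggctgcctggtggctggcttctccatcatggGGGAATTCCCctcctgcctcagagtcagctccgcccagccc
Rel: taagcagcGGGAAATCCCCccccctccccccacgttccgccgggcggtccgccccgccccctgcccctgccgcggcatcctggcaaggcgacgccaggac

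These stretches of 100 bases lie at chr12:55492648-55492747 (Nfkbia), chr10:19015411-19015510 (Tnfaip3), chr11:54962957-54963056 (Tnip1) and chr11:23770970-23771069 (Rel), each on the minus strand, upstream of the gene and outside every gene of the RefSeq table. The match begins 29 bases before the transcription start in Nfkbia, 12 in Tnfaip3 and 57 in Tnip1. In Tnip1 the match reads the same on both strands. In Rel, matches of 10 bases begin 92 and 91 bases before the start and overlap. Nfkbia and Tnfaip3 fell in St2-/- and Tnip1 rose, while Rel was not called (values below), so matches stood upstream of genes that moved either way and of one that was not called.

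The search covered windows from 250 bases before to 50 bases after each start, on both strands, for 27 of the 34 members. The decamer was found in 12 of the 27 members (44.4%), against 6.55% of all 27025 genes with a window and 7.61% of those also tested on the arrays. It was present in 4 of 6 windowed members called higher (Bcl3, Tnip1, Cyld and Ebi3), in 3 of 5 called lower (Nfkbia, Tnfaip3 and Tnfaip2) and in 4 of 14 not called (Nfkb2, Rel, Tnip3 and Sod2). The shorter spelling GGNNTTTCC, which overlaps many of the same matches, was found in 13 of the 27 members (48.1%) and in 6.62% of all genes. It added Traf2, Icam1 and Ier3 and left out Tnip1 and Sod2. Members with matches were thus found among higher, lower and uncalled genes. The list includes genes known as NF-kB targets, so its higher share of matches can follow from how it was drawn up. A match describes the letters of this window and does not show that the site is bound.

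St2-/- was set against wild type to ask whether NF-kB genes of F4/80+ cells in the tumour differ when the host lacks ST2. The measured subunits and kinases were not called, 3 of the 5 measured adaptors and ligases rose, and inhibitors and targets moved apart, some up and some down. Ebi3, Tnip1, Traf1, Cd83, Malt1, Bcl3, Cyld and Birc3 rose. Ier3, Marcksl1, Nfkbia, Tnfaip3, Nfkbiz and Tnfaip2 fell. In all 14 of 31 measured members were called (45.2%), 8 higher and 6 lower. Over all genes 20.8% were called, 10.7% higher and 10% lower. Among the 8510 genes at least as bright as the dimmest member, Ikbkg, the share called was 33.9%, nearer to that of the members. Ebi3 was the 1 member that changed by at least 2-fold.

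**Figure D1:**
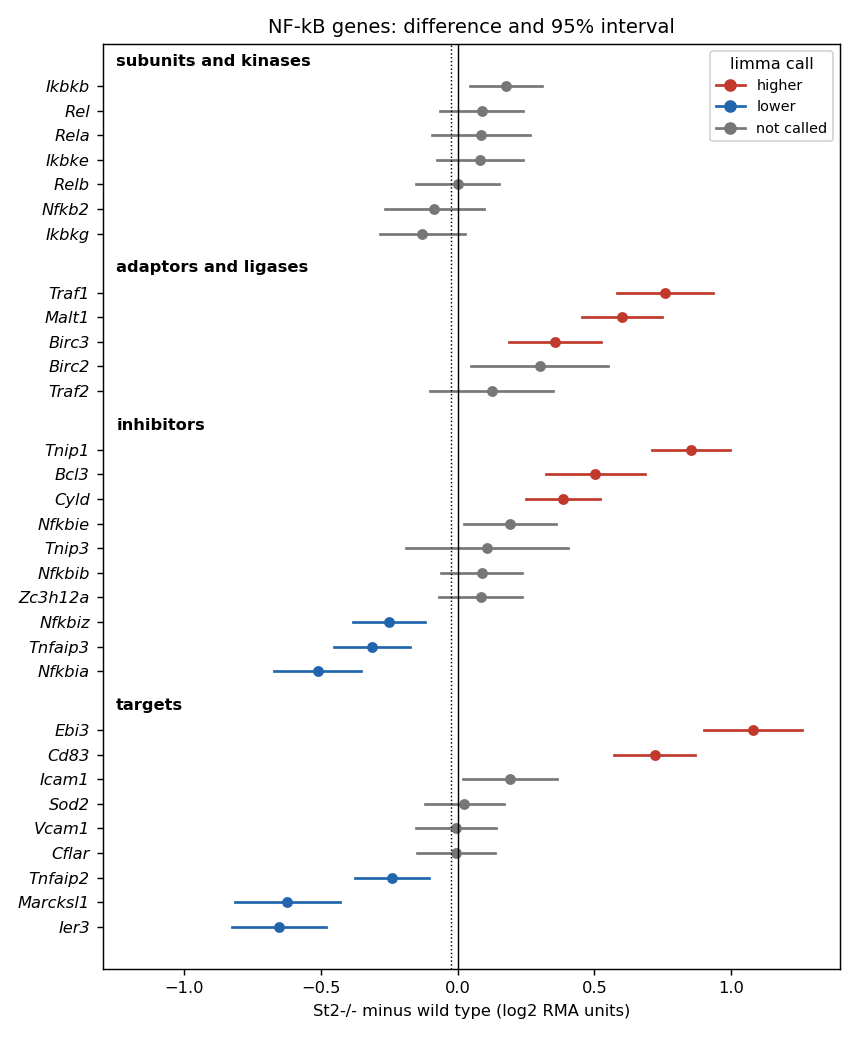
Difference of each of the 31 measured NF-kB genes (x axis, St2-/- minus wild type in log2 RMA units; points are differences, bars 95% limma intervals, red higher, blue lower, grey not called), grouped by role on the y axis; the dotted line is the median of all genes, -0.02. No subunit or kinase is called, whereas the inhibitors run from -0.51 (Nfkbia) to 0.85 (Tnip1) and the targets from -0.65 (Ier3) to 1.08 (Ebi3).

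Of the 5 NF-kB subunits, 4 were measured and none was called. Rela, which encodes the p65 subunit of the classical dimer, read 8.61, 8.81 and 8.84 on the wild type arrays and 8.91, 8.84 and 8.76 on the St2-/- arrays. The groups overlapped, with a difference of 0.08 (95% interval -0.10 to 0.26). Rel, the c-Rel subunit of blood cells, read 10.05, 9.97 and 10.03 in wild type and 10.13, 10.01 and 10.17 in St2-/-. These also overlapped, and the interval of the difference ran from -0.07 to 0.24.

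Relb, the partner of p52 in the slower route, averaged 7.22 in both groups, with wild type arrays at 7.22, 7.21 and 7.23 and St2-/- arrays at 7.12, 7.24 and 7.30. Nfkb2, which encodes the precursor of p52, read 8.34, 8.32 and 8.51 in wild type and 8.42, 8.28 and 8.21 in St2-/-, a difference of -0.09 (interval -0.27 to 0.09). None of the 4 intervals reached beyond a change of 0.27 on the log2 scale in either direction.

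The kinase genes gave a like picture with 1 borderline member. Ikbkb, the catalytic subunit of the classical IkB kinase complex (probe set 10577560), read 8.13, 8.12 and 8.14 in wild type and 8.30, 8.32 and 8.30 in St2-/-. Its groups did not overlap, and its difference of 0.18 ± 0.06 (SE) had a limma adjusted p of 0.0607. It passed in some other settings: centring each array on its median gave a limma adjusted p of 0.00976, against 0.0234 with an intensity trend, 0.0233 with a trend and robust prior and 0.0245 without dim genes.

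Ikbkg, the regulatory subunit NEMO, read 6.52, 6.47 and 6.40 against 6.34, 6.41 and 6.25, a difference of -0.13 (limma adjusted p = 0.229). Ikbke, a kinase of the related TBK1 branch, read 7.55, 7.53 and 7.68 against 7.74, 7.64 and 7.62, a difference of 0.08 (limma adjusted p = 0.476). The arrays of the 2 groups overlapped for both genes. Of the 7 measured subunits and kinases, Ikbkb alone had an unadjusted p under 0.05, and the median difference was 0.08 against -0.02 for all genes.

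Of 5 measured adaptors and ligases 3 were called higher in St2-/-, none lower and 2 not called. That is 60% called in a small group, against 20.8% of all genes and 33.9% of those at least as bright as the dimmest member. The median was 0.36, against -0.02 for all genes. Traf1, an adaptor of TNF family receptors and itself a known NF-kB target (probe set 10481949), read 6.10, 6.37 and 6.25 in wild type and 7.02, 7.01 and 6.96 in St2-/-. The lowest St2-/- array was well above the highest wild type array, and Traf1 was 1.69-fold higher (difference 0.76 ± 0.08 SE, limma adjusted p = 0.00011). Malt1, the protease of the CARD-BCL10-MALT1 complex (probe set 10456296), read 7.68, 7.68 and 7.76 in wild type and 8.29, 8.25 and 8.38 in St2-/-. That is 1.52-fold higher (difference 0.60 ± 0.07 SE, limma adjusted p = 0.000155).

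Birc3, a ubiquitin ligase (cIAP2) that NF-kB also induces, read 7.88, 7.89 and 8.06 in wild type and 8.38, 8.29 and 8.23 in St2-/-, a difference of 0.36 (limma adjusted p = 0.00824). Its close relative and neighbour Birc2 (cIAP1) read 6.54, 6.49 and 6.08 against 6.70, 6.65 and 6.66. Although its groups did not overlap, wild type replicate 3 lay far below the other wild type arrays. Birc2 was not called (difference 0.30, limma adjusted p = 0.0908), and its second, dimmer probe set differed by -0.05. Without wild type replicate 3 its difference was 0.155. Birc2 passed after arrays were centred on their median (limma adjusted p = 0.0311). Traf2, which holds cIAP proteins at the receptor, read 6.99, 7.25 and 7.13 against 7.44, 7.10 and 7.20, with overlap and no call (difference 0.12).

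**Figure D2:**
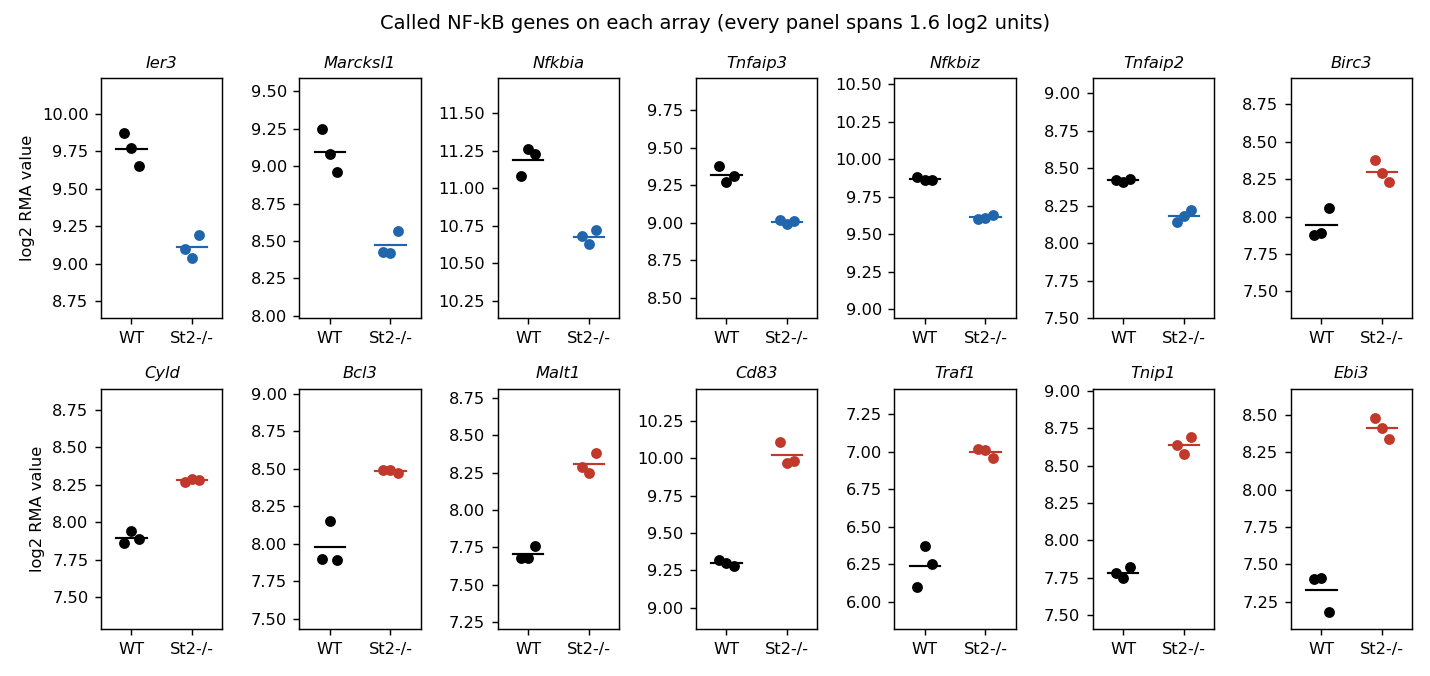
Log2 RMA value (y axis) on each of the 6 arrays for the 14 called NF-kB genes, ordered by difference; black points are the 3 wild type arrays, blue or red points the 3 St2-/- arrays, and lines group means. Each panel spans the same range, and in all 14 panels the groups do not overlap, from Ier3 (-0.65) to Ebi3 (1.08).

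The inhibitors split in opposite directions, with a median of 0.10 and 60% called, against 20.8% of all genes and 33.9% of bright genes. Of 10 measured members 3 were higher, 3 lower and 4 not called. These counts include the atypical nuclear IkB genes Nfkbiz (lower) and Bcl3 (higher), which are not simple brakes. Among the lower genes, Nfkbia encodes IkB-alpha, the inhibitor that is destroyed and resynthesised in each cycle of activation (probe set 10400405). It read 11.08, 11.26 and 11.23 in wild type and 10.68, 10.63 and 10.72 in St2-/-. All St2-/- arrays lay below all wild type arrays, 1.43-fold lower on average (difference -0.51 ± 0.07 SE, limma adjusted p = 0.000691). Tnfaip3 encodes A20, an enzyme that edits ubiquitin chains to shut the pathway off. It read 9.38, 9.27 and 9.31 in wild type and 9.02, 8.99 and 9.01 in St2-/-, 1.24-fold lower (difference -0.31 ± 0.06 SE, limma adjusted p = 0.00599).

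Nfkbiz, an atypical nuclear IkB protein that helps switch on secondary response genes, averaged 9.87 ± 0.01 (SD, n = 3) and 9.61 ± 0.02 (SD, n = 3), a difference of -0.25 (limma adjusted p = 0.0132). After arrays were centred on their median it no longer passed (difference -0.16, limma adjusted p = 0.0855).

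Among the higher inhibitors, Tnip1 (ABIN1) binds ubiquitin chains and works together with A20 (probe set 10385941). It read 7.78, 7.75 and 7.82 in wild type and 8.64, 8.58 and 8.69 in St2-/-, a 1.81-fold higher level (difference 0.85 ± 0.06 SE, limma adjusted p = 1.3e-05). Its range within each group was far smaller than the gap between them. Tnip1 thus rose while Tnfaip3, the gene of its partner protein, fell.

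Bcl3, an atypical IkB protein that binds p50 and p52 dimers in the nucleus, read 7.90, 8.15 and 7.89 in wild type and 8.49, 8.49 and 8.47 in St2-/-. It was 1.42-fold higher (difference 0.50 ± 0.08 SE, limma adjusted p = 0.00176), and wild type replicate 2 was the nearest to the other group. Cyld, a deubiquitinase that removes the activating chains, read 7.86, 7.94 and 7.89 against 8.27, 8.29 and 8.28, 1.30-fold higher (difference 0.38 ± 0.06 SE, limma adjusted p = 0.00158).

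The other 4 inhibitors were not called. Nfkbib and Nfkbie, the IkB-beta and IkB-epsilon genes, differed by 0.09 and 0.19. Nfkbie did not overlap between groups, and its limma adjusted p was 0.109, or 0.0261 after arrays were centred on their median. Zc3h12a, an RNase that degrades inflammatory transcripts, differed by 0.08. Tnip3, a relative of Tnip1, differed by 0.11 with an interval from -0.19 to 0.40; wild type replicate 3 (8.53) lay apart from replicates 1 and 2 (8.97 and 9.11), and without it the difference was -0.06. Of the 3 classical IkB genes, Nfkbia alone was called.

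The targets also moved both ways, with 2 higher, 3 lower and 4 not called of 9 and a median of -0.01. That is 55.6% called, against 20.8% of all genes and 33.9% of bright genes. Ebi3, the shared subunit of the cytokines IL-27 and IL-35 (probe set 10445977), read 7.40, 7.41 and 7.18 in wild type and 8.48, 8.41 and 8.34 in St2-/-. It was 2.11-fold higher (difference 1.08 ± 0.08 SE, limma adjusted p = 1.36e-05). Cd83, a surface protein of mature dendritic cells and activated macrophages (probe set 10404840), read 9.32, 9.30 and 9.28 against 10.11, 9.97 and 9.98. Its level was 1.65-fold higher (difference 0.72 ± 0.07 SE, limma adjusted p = 4.88e-05).

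Ier3, a stress-induced survival gene (probe set 10444890), read 9.87, 9.77 and 9.65 in wild type and 9.10, 9.04 and 9.19 in St2-/-. That is 1.57-fold lower (difference -0.65 ± 0.08 SE, limma adjusted p = 0.000245). Marcksl1, an actin-binding relative of MARCKS (probe set 10508465), read 9.25, 9.08 and 8.96 against 8.43, 8.42 and 8.57, 1.54-fold lower (difference -0.62 ± 0.09 SE, limma adjusted p = 0.000698). For both genes the groups were clearly apart.

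Tnfaip2, a TNF-induced gene, read 8.42, 8.41 and 8.43 against 8.14, 8.18 and 8.22, a difference of -0.24 (limma adjusted p = 0.0194). This call had the largest adjusted p of the 14: it was 0.118 in limma after median centring of the arrays, 0.0733 without St2-/- replicate 1 and 0.0571 without St2-/- replicate 2.

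The other 4 targets were not called. Vcam1 and Icam1, the endothelial and leukocyte adhesion molecules, differed by -0.01 (interval -0.15 to 0.14) and 0.19 (interval 0.02 to 0.36). Icam1 had an adjusted p of 0.117 in limma, 0.0185 after median centring, and 0.0346 and 0.0351 with an intensity trend without and with a robust prior. Sod2, the mitochondrial superoxide dismutase, differed by 0.02, and Cflar, which blocks caspase-8, by -0.01. The other 2 probe sets of Cflar differed by 0.02 and 0.12.

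The groups did not overlap for 18 of the 31 members (58.1%), against 36.4% of all genes. These were the 14 called members, and also Ikbkb, Birc2, Nfkbie and Icam1, which were higher in St2-/-. For called members a gap between the groups follows largely from the call. The all-gene share of 36.4% includes genes dimmer than any member, and the share among genes as bright as the members was not computed. Differences of the 17 members not called ran from -0.13 (Ikbkg) to 0.30 (Birc2, or 0.155 without wild type replicate 3), and 12 of them were above 0. After each array was centred on its median, which raised every difference by 0.09, 16 members were called, 12 higher and 4 lower. Over all genes the split after centring was 3686 higher and 1294 lower, against 2142 and 1998 before it.

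Receptors, adaptors and regulators outside the members were taken from a list of 37 further pathway genes, 33 of them measured. Of these 8 were higher, 3 lower and 22 not called (33.3% called, against 20.8% of all genes and 33.9% of the bright genes described above, median 0.06). Irak2, a kinase that carries the MYD88 signal on (probe set 10540795), read 8.20, 8.26 and 8.22 in wild type and 9.01, 9.08 and 9.14 in St2-/-, 1.80-fold higher (limma adjusted p = 1.46e-05). Irak3, which restrains the same signal, rose by 0.62, Otulin, which removes linear ubiquitin chains, by 0.52, and Tank, a scaffold of the TBK1 branch, by 0.45. Nfkbid, another atypical nuclear IkB protein, read 8.28, 8.29 and 8.14 in wild type and 7.66, 7.51 and 7.35 in St2-/- and fell by 0.73 on the log2 scale (limma adjusted p = 0.000292). So Nfkbid and Nfkbiz fell among the atypical IkB genes, and Bcl3 rose.

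Other genes of this list, named after their values were seen, fall by branch. Of the TBK1 branch, Tbk1 and its adaptor gene Azi2 were higher beside Tank (0.37 and 0.27), and Ikbke was not called. Azi2 missed the threshold after cyclic loess (limma adjusted p = 0.0783) and when wild type replicate 1, wild type replicate 2, St2-/- replicate 2 or St2-/- replicate 3 was left out (0.053 to 0.0704). Of the linear ubiquitin ligase, the subunit genes Rbck1, Sharpin and Rnf31 differed by 0.23, 0.17 and 0.10, and Rbck1 was called (limma adjusted p = 0.0469, 0.195 after cyclic loess, 0.087 over all rows, 0.0502 with array weights, 0.0909 with the replicate block, and 0.0543 to 0.148 when any array other than St2-/- replicate 3 was left out). Sharpin, not called (limma adjusted p = 0.0845), passed after median centring (0.0153), with a trend (0.0318, or 0.0317 with a robust prior) and without dim genes (0.0384). The TAK1-binding protein gene Tab2 was higher (0.26; limma adjusted p = 0.0875 after cyclic loess and 0.0593 without St2-/- replicate 3) and its kinase gene Map3k7 was not called (-0.04). Of the receptors, Tnfrsf1a, the main TNF receptor, and Tnfrsf11a (RANK) were lower (-0.35 and -0.20). Tnfrsf11a missed the threshold when any array was left out (limma adjusted p = 0.0754 to 0.12), after median centring (0.238), over all rows (0.0604) and with the replicate block (0.0792). The receptor and adaptor genes Tlr2, Tlr4 and Myd88 were not called (0.06, 0.06 and 0.13), though Myd88 passed after median centring (0.22, limma adjusted p = 0.0371). Map3k14, the kinase of the slower route, differed by -0.16 and was not called.

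**Figure D3:**
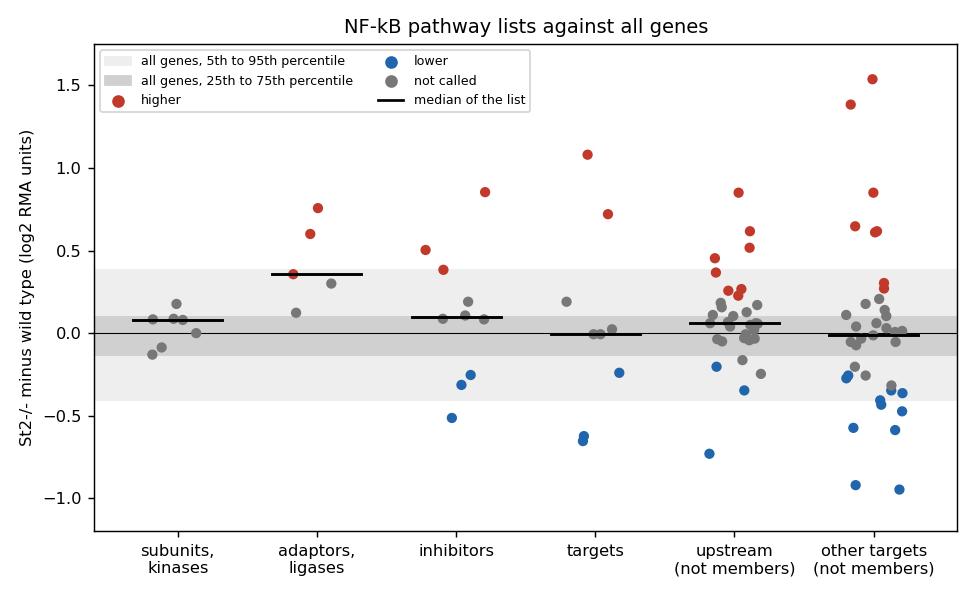
Difference of each gene (y axis, St2-/- minus wild type in log2 RMA units) in the 4 role groups of NF-kB members and 2 further lists of pathway genes (x axis); red points are called higher, blue lower, grey not called, black lines are list medians and grey bands the percentiles of all genes. Genes outside the wide band (-0.40 to 0.38) lie on both sides in the inhibitors, targets, upstream genes and other targets, and in neither direction among subunits and kinases.

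A second list of 37 further target genes, all measured, moved both ways: 8 were higher, 11 lower and 18 not called (51.4% called, against 20.8% of all genes, median -0.01). Ccl5, a chemokine that draws T cells, read 8.28, 8.26 and 8.23 in wild type and 9.82, 9.73 and 9.83 in St2-/-, 2.90-fold higher (limma adjusted p = 2.91e-07). Nos2, the inducible nitric oxide synthase, and Cd86, a co-stimulatory molecule, rose by 1.38 and 0.85. Cxcl2, a neutrophil attractant, read 10.29, 10.32 and 10.15 in wild type and 9.30, 9.29 and 9.33 in St2-/-, 1.93-fold lower (limma adjusted p = 1.07e-05). Mmp9, a matrix protease, fell by 0.92 on the log2 scale.

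Among the classical inflammatory cytokines in this list, named after their values were seen, Il1b rose (0.65), Il1a and Tnf fell (-0.59 and -0.35), and Il6 and Il12b were not called (-0.26 and 0.06). Il6 and Il12b were dim, with wild type means of 3.47 and 4.69, below the median of every array, so their lack of a call says little. Il23a, also below the array medians, was called lower (-0.27). No direction was common to Il1b, Il1a and Tnf, the brighter of these genes.

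Markers of other cell types differed between the same arrays. Of 6 dendritic cell markers 3 were higher (Xcr1, Clec9a and Itgax), 1 lower (Ccr7) and 2 not called (Flt3 and Zbtb46). Summed on the linear scale, that list lay between 778 and 871 in wild type and between 2894 and 3030 in St2-/-, beside the rise of Cd83 and Ebi3, which dendritic cells also express. Most of that sum was Itgax, which macrophages also express and which averaged 9.25 in wild type and 11.05 in St2-/-. Of 5 T cell markers 4 were higher and none lower, with sums of 190 to 221 and 474 to 501, beside the rise of Traf1, Birc3 and Malt1, which lymphocytes also express. Cd4 had the largest difference of these markers (2.19) and was the brightest of them in both groups. Cd3e, Cd3g and Cd8a differed by 0.72, 0.94 and 0.30, and Cd3d was not called (0.02). Of 4 NK cell markers 1 was higher (Nkg7, 1.45), with sums of 54 to 57 and 82 to 102. Ncr1, Klrb1c and Eomes were dim, differed by 0.09, -0.11 and 0.13 and were not called, so the rise of that sum was that of Nkg7. Of 2 measured B cell markers 1 was higher (Ms4a1, 0.48) and Cd79a was not called (-0.23), with sums of 26 to 29 and 28 to 32. Both genes were dim, below the median of every array.

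Fibroblast markers had 5 of 6 members lower and 1 higher, with sums of 3497 to 3622 in wild type and 791 to 865 in St2-/-. Dcn, the brightest of them in wild type, averaged 11.34 there and 8.01 in St2-/-, so these sums follow Dcn closely. Lum and Pdgfra differed by -3.56 and -1.74, Col3a1 and Col1a1 by -0.61 and -0.34, and Col1a2 was the higher gene (0.35). Endothelial markers had 3 lower of 6 (Cdh5, Emcn and Vwf, -1.46, -1.31 and -1.13) and 2 higher (Kdr and Pecam1, 1.52 and 0.89). Their sums of 534 to 630 and 626 to 640 hide these opposite changes. Neutrophil markers had 3 lower and 1 higher of 5, with sums of 502 to 544 and 445 to 460. S100a8, S100a9 and Cxcr2 differed by -1.77, -1.69 and -0.37 and Csf3r by 0.50, while Ly6g was not called (-0.12). Epithelial markers had 1 of 4 lower, with sums of 673 to 748 and 624 to 668. Of 12 immediate early genes, which stress during tissue dissociation can also induce, 9 were lower and none higher. Fos (-0.58), Egr1 (-0.78) and Ier2 (-0.91) were among the lower genes. Atf3 (0.03), Klf6 (-0.06) and Junb (-0.22) were not called. Sums over the 12 were 29781 to 30508 and 22362 to 22868, beside the fall of the quickly induced genes Nfkbia, Tnfaip3, Nfkbiz and Ier3. The part of these cell types and genes in the members' differences was not tested.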

How the data were processed

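The samples were total RNA of F4/80+ cells, with 3 Affymetrix Gene 1.0 ST arrays in each group, per the labels' protocols. The values used are on a log2 scale and were deposited by the authors after RMA, which the submitters' processing notes name without a version or annotation. The log base is not stated, and log2 was taken as the usual scale of RMA. Quantile normalization hides a shift shared by most genes.

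The platform table paired 21789 of 35556 probe sets with 1 symbol. Where a gene had several, its brightest by mean over the 6 arrays was used. Groups were compared with limma 3.58.1 in R 4.3.3 (lmFit, eBayes, two-sided, Benjamini-Hochberg over 19938 genes). The same fit was run on simulated arrays with far fewer changed genes than were called here. That run checks the code and not the calls in these data. The members, the role groups and the further lists were chosen with earlier results of these data known. Array values are given for subunits and the 5 members per role group with the smallest p; up to 5 called genes per further list were named by p. The alternatives were other array scalings, variance priors, array weights, all rows, the mean of probe sets, no dim genes, a replicate block and leaving out each array; the bright-gene background and the immediate early list were added after seeing the data. Promoter windows are from the RefSeq table of GRCm38.p6. The number of arrays limits precision.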

Additional observations from a re-analysis of the deposited data

How the results depend on the processing

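Over 15 alternative settings, 12 of the 14 called members kept their direction and call; Nfkbiz lost its call in 1 setting and Tnfaip2 in 3. The count of called members ranged from 13 to 16, and the 4 members called in other settings only (Ikbkb, Birc2, Nfkbie and Icam1) were higher in St2-/-. With arrays centred on their median, 1 of the 7 subunits and kinases was called, as with an intensity trend, with a trend and robust prior, and without the dimmest 40% of genes; in each it was Ikbkb. Centring moved the medians of subunits and kinases, adaptors, inhibitors, targets, upstream genes and other targets to 0.17, 0.45, 0.19, 0.083, 0.15 and 0.077. Cyclic loess moved those of subunits and kinases, inhibitors, targets and upstream genes to -0.0096, 0.013, -0.099 and -0.015. The mean of all probe sets gave 0.023 for targets, and leaving out dim genes 0.022 for other targets. When each array was left out in turn, the medians ranged from 0.012 to 0.093 for subunits and kinases, from 0.093 to 0.17 for inhibitors and from -0.03 to 0.022 for other targets; the lowest value for subunits and kinases came without wild type replicate 1, the highest for inhibitors without wild type replicate 2 and the highest for other targets without St2-/- replicate 1. Directions of list medians near 0 therefore depend on scaling. The replicate numbers shared by the groups gave no sign of pairing (correlations of deviations over genes 0.01, -0.01 and -0.05 for numbers 1, 2 and 3). Not every array correlated best with its own number. No label says that a number is shared, so whether the arrays were paired is not known. With the replicate number as a block, 14 members and 3571 genes were called and no member's call changed. Rbck1 and Tnfrsf11a, which are not members, lost their calls. No detection calls were used, so signal over background is not given for dim genes.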
